A study of Homo sapiens with 2 samples.

Results

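The pseudouridine synthases described here are 10 human genes, PUS1, PUS3, PUS7, PUS7L, PUS10, TRUB1, TRUB2, RPUSD3, RPUSD4 and DKC1. All transcripts that the tables listed for these genes were taken, 79 of 206696 listed transcripts, and summed to 10 of 59026 matched genes. Total RNA from which rRNA had been depleted was sequenced from HEK293 Flp-In T-Rex cells, an established line from human embryonic kidney in which a transgene can be placed at a single site under tetracycline control. The cells were grown in high glucose DMEM with foetal calf serum and received no treatment per the labels, so there was 1 group of 2 libraries, replicate 1 and replicate 2, and no condition to compare. Whether the libraries came from separate cultures was not given, so the spread between them may be technical.

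Pseudouridine is an isomer of uridine in which the base is joined to the ribose through a carbon atom, and it is common in tRNA, rRNA and snRNA. Stand-alone synthases of the TruA, TruB, TruD, RluA and Pus10 families recognise their substrates directly, in the nucleus, the cytosol or the mitochondrion. DKC1 (dyskerin) instead works in H/ACA ribonucleoproteins, where a small guide RNA selects the uridine.

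Replicate 1 held 25158962 estimated counts and replicate 2 held 27143860. The 10 genes took 0.0472% of them in replicate 1 and 0.0448% in replicate 2. HEK293 marker genes were detected in both libraries, with normalised counts of 16407 and 15363 for VIM, 1868 and 1848 for NEFL, 108 and 117 for LHX1, 33.9 and 50.1 for PAX2, and 14.5 and 18.7 for NEFM. Of the markers of other cell types, PTPRC and ALB were listed at 0 in both libraries, PECAM1 was at 1.06 and 0.927, and COL1A1 was at 156 and 291.

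All 10 genes were expressed in both libraries, and the mitochondrial RPUSD3 and the nucleolar DKC1 stood above the other 8. Levels of different genes are compared only as length-normalised levels, which are estimated counts divided by transcript length, summed per gene and scaled to 1000000 per library. The median of the 10 genes was 14.0, against 7.69 for 15537 protein-coding genes and 1.87 for all 26370 expressed genes, those that reached 1 normalised count in each library. The highest mean exceeded the lowest 53.0-fold. In bulk RNA, fewer cells with a transcript and less of it per cell cannot be told apart.

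RPUSD3 and DKC1 shared the top of the order. RPUSD3 had a length-normalised level of 60.9 in replicate 1 and 69.6 in replicate 2 (65.2 ± 6.14, SD, n = 2), and 95.9% of expressed genes were lower. DKC1 had 67.1 and 60.1 (63.6 ± 4.92), and 95.8% of expressed genes were lower. The libraries ordered this pair in opposite ways, so these genes did not differ beyond their spread. Together they held 59.3% of the summed level of the 10 genes in replicate 1 and 60.0% in replicate 2.

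A middle group followed. PUS7, a TruD-type enzyme that modifies tRNA and mRNA, had length-normalised levels of 20.9 and 17.9 (19.4 ± 2.13). RPUSD4, an RluA-type enzyme of mitochondria, had 16.0 and 14.5 (15.2 ± 1.09), and TRUB1, a TruB-type enzyme that acts on the T-loop of tRNA, had 15.2 and 14.8 (15.0 ± 0.308). PUS1, a TruA-type enzyme with nuclear and mitochondrial forms, had 10.6 and 15.4 (13.0 ± 3.42). Replicate 1 put PUS1 below RPUSD4 and TRUB1 and replicate 2 put it above both, so the order within these 3 was not settled.

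The lower end held TRUB2, PUS7L, PUS3 and PUS10. TRUB2, the mitochondrial TruB-type protein, had length-normalised levels of 9.75 and 10.8 (10.3 ± 0.775). PUS7L, the TruD-type paralogue of PUS7, had 8.45 and 6.98 (7.71 ± 1.04), and PUS3, which modifies the anticodon stem-loop of tRNA, had 5.47 and 4.93 (5.20 ± 0.378). PUS10, which acts on the T-loop of tRNA, was lowest with 1.44 and 1.02 (1.23 ± 0.301), and 45.1% of expressed genes were lower still.

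A pair of genes was called different when it had the same order in replicate 1 and replicate 2 and its means lay further apart than their summed SDs. By this rule 40 of 45 pairs were called, with no p-value, since 2 libraries of 1 group allow no sign-flip p under 0.5. Pairs of other expressed genes were not put through this rule. The count of 40 of 45 thus has no background, and whether it is high for a set of genes was not tested. Among the 9 pairs of neighbours in the order, DKC1 was 3.28-fold above PUS7, PUS7 1.27-fold above RPUSD4, TRUB2 1.33-fold above PUS7L, PUS7L 1.48-fold above PUS3 and PUS3 4.23-fold above PUS10. The other 4 neighbour pairs were not called: RPUSD3 and DKC1, RPUSD4 and TRUB1, TRUB1 and PUS1, and PUS1 and TRUB2, with PUS1 1.26-fold above TRUB2 in the means. The remaining pair without a call was RPUSD4 and PUS1.

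Several neighbours changed order or call with the transcripts or lengths used. With protein-coding transcripts only, which leave out transcripts that held 77.0% of the length-normalised level of TRUB2, TRUB2 fell below PUS7L (log2 ratio -1.32 against 0.42), PUS1 was called above TRUB2 (1.97 against 0.34) and PUS7L was no longer called above PUS3 (0.18 against 0.57). With the length of the canonical transcript of each gene, PUS7L fell below PUS3 (-0.89), and TRUB1 was called above PUS1 (1.21 against 0.21) and PUS1 above TRUB2 (0.47). With transcripts of the same annotation version only, PUS7 over RPUSD4 (0.07 against 0.35) and PUS7L over PUS3 (0.26) lost their calls, and PUS1 was called above TRUB2 (0.67), RPUSD3 above DKC1 (1.73) and RPUSD4 above TRUB1 (1.53). The canonical PUS7L-201 has 13567 nt, more than the 4364 nt of PUS7L-202 and the 3313 nt of PUS7L-207, with which it shares its coding sequence.

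**Figure D1:**
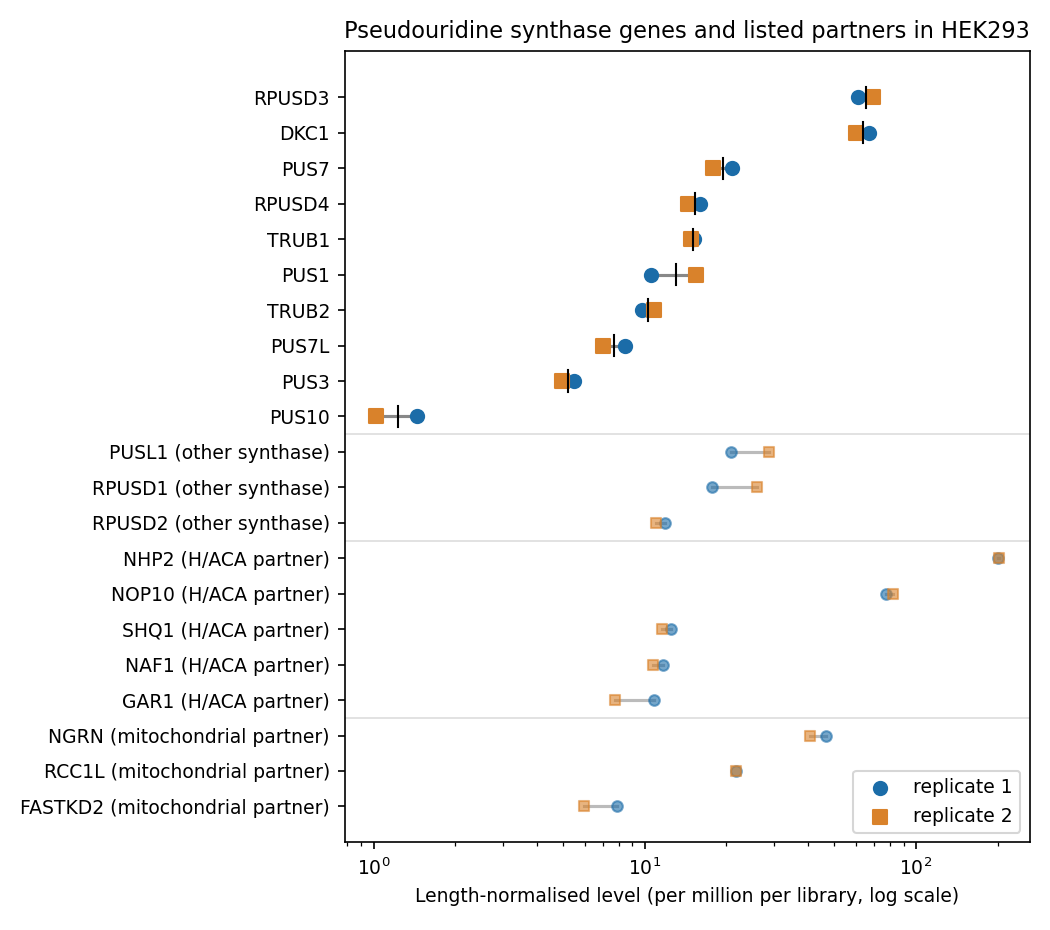
Length-normalised level (scaled to 1000000 per library, log axis) of the 10 pseudouridine synthase genes, sorted by their mean (black tick, synthases only), and of listed partner genes, with a circle for replicate 1 and a square for replicate 2. RPUSD3 and DKC1 lie between 60.1 and 69.6, PUS10 lies at 1.44 and 1.02, and the libraries cross over in the pairs RPUSD3 and DKC1, RPUSD4 and TRUB1, RPUSD4 and PUS1, and TRUB1 and PUS1.

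Between the libraries no synthase gene changed by more than 2-fold, while 13.1% of the 26370 expressed genes did. On the normalised count, which is the estimated count divided by a size factor per library, PUS10 moved most, from 143 to 73.4 (1.94-fold). That 73.4 was the lowest normalised count of the 10 genes, while an expressed gene needed only 1 in each library. The comparison with 13.1% is thus not matched for level. PUS7L went from 1167 to 819, TRUB1 from 1287 to 927 and RPUSD4 from 910 to 766. PUS1, RPUSD3 and TRUB2 were the 3 of 10 genes that were higher in replicate 2, against 48.6% of expressed genes.

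These differences mostly rose with GC content. The 3 genes with the lowest GC content of the canonical transcript, PUS7L (34.2%), TRUB1 (35.4%) and PUS10 (36.5%), had log2 differences (replicate 2 minus replicate 1, normalised counts) of -0.51, -0.47 and -0.96. PUS7 (42.0%), PUS3 (43.1%) and DKC1 (46.3%) had -0.19, -0.19 and -0.23. RPUSD4 (50.9%) had -0.25, TRUB2 (51.3%) had 0.16, and PUS1 (59.1%) and RPUSD3 (60.0%), the most GC-rich, had 0.37 and 0.20.

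Spearman's rho between GC content and the log2 difference was 0.84 across the 10 genes (Pearson's r 0.87), 0.68 across 14945 protein-coding genes, and again 0.84 across the 11015 of these with at least 100 normalised counts. In that abundant set, the median log2 difference was -0.34 below 45% GC (4338 genes), -0.08 between 45 and 55% (3412 genes) and 0.25 above 55% (3265 genes). All points come from the same pair of libraries, and genes are not replicates, so these are descriptions. Relative to the median of the 500 protein-coding genes nearest in GC content, 9 of the 10 genes came nearer to 0. The exception was TRUB2, which went from 0.16 to 0.19. This count was not made over all genes, so whether 9 of 10 is high was not tested. PUS10 went from -0.96 to -0.50, and the largest absolute difference of the other genes was 0.197, for RPUSD4. The part of GC content in the differences was not tested.

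**Figure D2:**
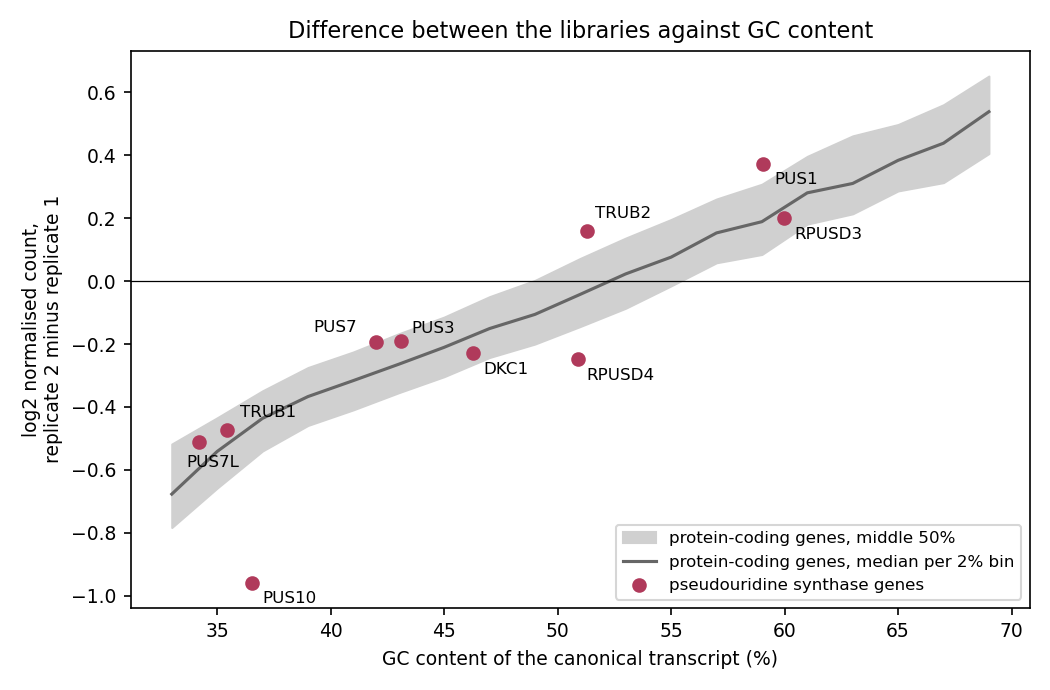
Log2 difference in normalised count (replicate 2 minus replicate 1) against the GC content of the canonical transcript in percent, with the 10 synthase genes as labelled points and protein-coding genes with at least 100 normalised counts as a median line and a band for the middle 50%. The line rises with GC content, and PUS10 lies lowest of the 10 genes at -0.96.

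The transcripts of a gene were then compared as shares of that gene's estimated counts, to ask which of its forms these cells carry. Each gene has 1 MANE transcript, the form that Ensembl and RefSeq chose jointly as its standard. The highest transcript by mean share was not the canonical one in 5 of 10 genes (PUS1, PUS3, PUS7, PUS10 and RPUSD4), and this held for 45.3% of 14209 protein-coding genes with several transcripts. It was annotated as not protein-coding in PUS10 alone, 1 of 10, against 12.2%. The highest transcript was a different one in each library for PUS7 and RPUSD4, 2 of 10 genes, against 21.5% of 16735 genes. RSEM divides reads that fit several transcripts, so shares of near-identical transcripts carry an uncertainty that counting intervals do not cover.

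**Figure D3:**
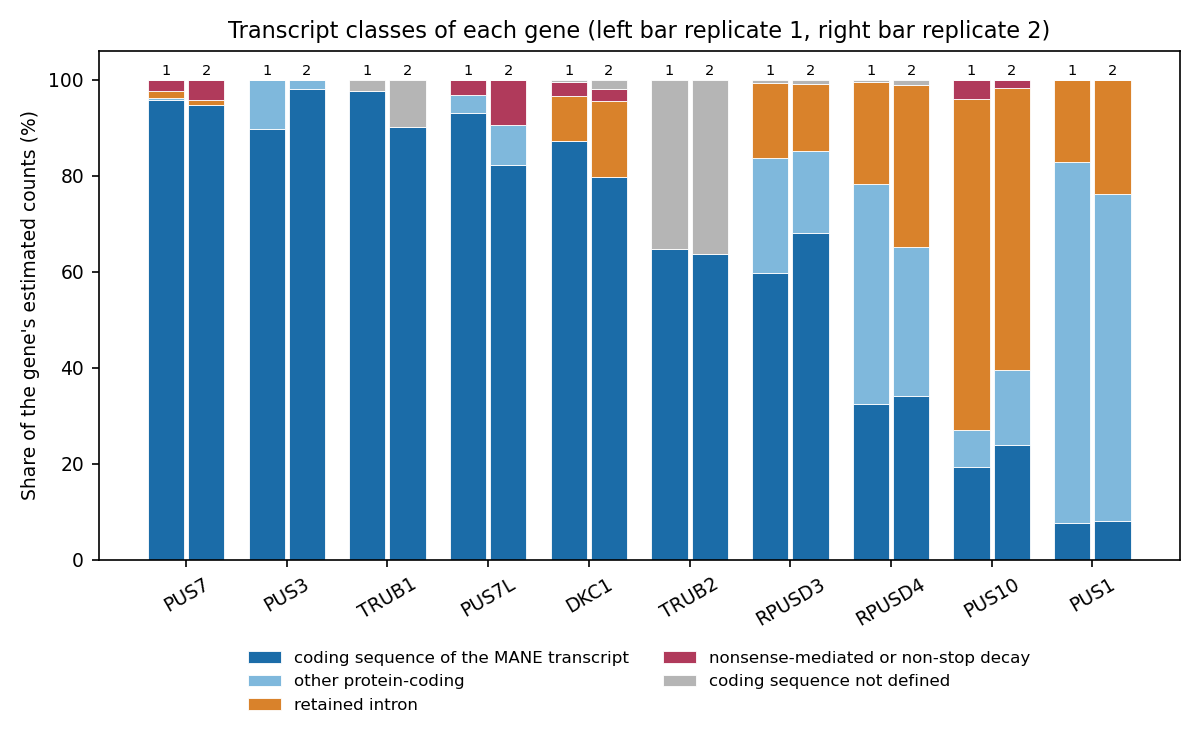
Share of each gene's estimated counts (percent) by annotated transcript class, with the left bar for replicate 1 and the right bar for replicate 2 and genes sorted by the share of the MANE coding sequence. That share runs from 95.7% and 94.7% for PUS7 to 7.61% and 8.02% for PUS1, and retained-intron transcripts take 68.8% and 58.7% of PUS10.

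PUS1 (ENSG00000177192, chromosome 12, 131929200 to 131945896, plus strand, GRCh38, GENCODE v44) uses alternative coding starts. The longer protein form begins with a stretch that directs it to mitochondria, and the shorter form that lacks it is nuclear. The starts are shown because the annotated coding sequences begin at different ones, with the start codon in capitals.
PUS1-202, chr12:131929723-131929752, plus strand: ATGggcctccagcttcgcgcgctgttggga
PUS1-203, chr12:131929917-131929946, plus strand: ATGgccgggaacgcggagccgccgcccgcc
PUS1-208, chr12:131932031-131932060, plus strand: ATGagcgtggcagctcacacttgtaatctc

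The longest annotated PUS1 coding sequence has 427 codons and is that of PUS1-202, the MANE transcript. Coding from the second start gives up to 399 codons, 28 fewer, and PUS1-208 has 374. The letters printed for the second start also occur inside PUS1-202, so reads over them do not tell the first 2 starts apart. PUS1-202 has 2453 exonic nt that PUS1-203 lacks, and its last exon has 2358 nt against 321 nt in PUS1-203. Counts per start are sums over whole transcripts, so the shares of the first 2 starts also depend on reads outside the coding sequence.

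Most PUS1 coding counts fell to transcripts with the second start. The first start had 9.19% of the 386.17 coding counts of replicate 1, with an exact 95% interval of 6.62 to 12.7, and 10.5% of the 524.35 of replicate 2 (8.01 to 13.4), or 9.86% ± 0.948 (SD, n = 2). The second took 56.4% (51.4 to 61.5) and 67.1% (63.0 to 71.2), or 61.7% ± 7.53, and the third took 34.4% (29.7 to 39.4) and 22.4% (18.8 to 26.1), or 28.4% ± 8.48. The order of the starts was the same in both libraries, the intervals of the first start overlapped, and those of the second and the third did not. Divided by length, the first start had 4.30% and the second 72.2%.

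Among single PUS1 transcripts, PUS1-203 led with 209 and 315 estimated counts, or 44.8% and 45.7% of the gene. PUS1-208 had 133 and 117 counts and PUS1-202 had 35.5 and 55.2. The retained-intron transcript PUS1-209 had 61.0 and 118 counts, 13.1% and 17.1%. The share of PUS1-203 did not differ between the libraries by Fisher's exact test with Benjamini-Hochberg adjustment over all genes (adjusted p = 0.899). The antisense gene PUS1-AS1 covers 152 nt of PUS1-203, or 9.13%, and had 1.06 and 1.88 normalised counts.

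Over all genes with several transcripts and at least 10 counts in each library, this test called a difference in the share of the leading transcript in 6 of the 10 synthase genes (PUS3, PUS7, TRUB1, RPUSD3, RPUSD4 and DKC1) and in 53.3% of 14281 genes. It compares these libraries, not a condition.

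PUS3 (ENSG00000110060, chromosome 11, 125893485 to 125903221, minus strand) had 250 estimated counts in each library, nearly all from 1 coding sequence. PUS3-203 took 224 of them in replicate 1 and 245 in replicate 2, or 89.6% (exact 95% interval 85.1 to 93.1) and 98.0% (95.4 to 99.3) on rounded counts, which differed between the libraries (Fisher's exact test, adjusted p = 0.000351). PUS3-205 took the remaining 25.8 counts in replicate 1, 10.3%, and was listed at 0 in replicate 2, where 3 counts would be 1.20%. The MANE transcript PUS3-201 was listed at 0 in both libraries. It has the same coding sequence as PUS3-203 and 37 further exonic nt, so the MANE coding sequence still held 89.7% and 98.1% of the counts.

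The coding starts of PUS3-203 and PUS3-205 are shown because PUS3-205 lacks the first 208 codons of PUS3-203, with the start codon in capitals. The letters printed for PUS3-205 are also present in PUS3-203, so they do not mark PUS3-205 alone.
PUS3-203, chr11:125896255-125896284, minus strand: ATGgcttataatgacacagacagaaaccag
PUS3-205, chr11:125895514-125895543, minus strand: ATGgattatgcagctcagaagtatgttggc

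PUS3 shares 7162 nt of its span with HYLS1 on the opposite strand, which had 170 and 184 normalised counts. No exonic base of PUS3-203 lies in a HYLS1 exon.

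PUS7 (ENSG00000091127, chromosome 7, 105439661 to 105522271, minus strand) divided its counts about evenly between a pair of transcripts with an identical coding sequence. PUS7-201 had 851 and 760 estimated counts and the MANE transcript PUS7-202 had 721 and 793. They share 3480 exonic nt, and only 45 nt, in blocks of 13, 24 and 8, belong to PUS7-202 alone. PUS7-201 led in replicate 1 with 51.8% (exact 95% interval 49.3 to 54.2) and was behind PUS7-202 in replicate 2 with 46.4% (43.9 to 48.8), a difference that the test called (Fisher's exact test, adjusted p = 0.00449). The MANE coding sequence held 95.7% and 94.7% of the gene, and so the change of leader left the coding sequence the same.

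PUS7L (ENSG00000129317, chromosome 12, 43718992 to 43758793, minus strand) had its MANE coding sequence in 93.0% of its counts in replicate 1 and 82.2% in replicate 2. The leading PUS7L-201 had 591 and 504 estimated counts, 53.6% and 57.0% on rounded counts, which did not pass the test (Fisher's exact test, adjusted p = 0.208). PUS7L-202 had 231 and 151 counts and PUS7L-207 had 204 and 71.5. PUS7L-208, annotated for non-stop decay, had 35.3 and 82.7 counts, 3.20% and 9.36%. Divided by length, the MANE coding sequence had 71.4% and 45.5% of the gene, PUS7L-201 had 19.7% and 18.1%, and PUS7L-208 had 13.9% and 35.1%, the highest share in replicate 2.

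PUS7L-203, named after its values were seen, had 34.0 and 74.3 counts and lacks a 926-nt exon, so that its coding sequence begins 313 codons later. The letters after the start of PUS7L-203 are also present in PUS7L-201, and the start codons are in capitals.
PUS7L-201, chr12:43755216-43755245, minus strand: ATGgaagaagatacagattatagaatcagg
PUS7L-203, chr12:43748551-43748580, minus strand: ATGtttgaagcgattggttttttagctatc

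PUS10 (ENSG00000162927, chromosome 2, 60940222 to 61018259, minus strand) was the only one of the 10 genes led by a retained-intron transcript in share of estimated counts. PUS10-206 had 92.7 and 46.5 estimated counts, or 68.9% (exact 95% interval 60.4 to 76.6) and 58.2% (46.6 to 69.2) on rounded counts of 135 and 79, with overlapping intervals and no call (Fisher's exact test, adjusted p = 0.212). Retained-intron transcripts held 63.8% ± 7.14 of the gene (SD, n = 2) and protein-coding ones 33.3% ± 8.77. A protein-coding share below that of PUS10 was found in 7.70% of 15537 protein-coding genes. Divided by length, PUS10-206 had 38.5% in replicate 1 and 24.5% in replicate 2, where PUS10-203 (34.9%) and PUS10-202 (33.6%) were above it, and protein-coding transcripts held 54.0% ± 20.5.

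The sequences at the end of the sixth exon of PUS10-201 are shown because they separate the spliced from the unspliced form. Capitals mark the next exon in PUS10-201 and the intron in PUS10-206.
PUS10-201, chr2:60967502-60967516 joined to chr2:60965470-60965484, minus strand: cccattgatggaaagAGCTTGTTTGAAGTG
PUS10-206, chr2:60967487-60967516, minus strand: cccattgatggaaagGTATTGGGTCAACAG

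PUS10-206 keeps 2017 nt and 319 nt of intron on either side of the seventh exon of PUS10-201. The spliced junction lies in PUS10-201 and PUS10-203, which share a coding sequence of 529 codons and together held 19.4% and 24.0% of the gene. In replicate 1 these counts were all in PUS10-201 (26.2) and in replicate 2 all in PUS10-203 (19.0), the other being listed at 0 each time, where 3 counts would be 2.23% in replicate 1 and 3.79% in replicate 2. PUS10-202 had 10.4 and 12.3 counts. PUS10 overlaps PEX13 on the opposite strand over 1035 nt, and 98 nt of PUS10-206 (1.54%) lie in PEX13 exons, a gene with 685 and 590 normalised counts.

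TRUB1 (ENSG00000165832, chromosome 10, 114938195 to 114977676, plus strand) had a single coding transcript. TRUB1-201 held 1186 and 901 estimated counts, 97.5% (exact 95% interval 96.5 to 98.3) in replicate 1 and 90.1% (88.1 to 91.9) in replicate 2. The rest was TRUB1-202, a transcript of 584 nt with no defined coding sequence, with 29.7 and 99.2 counts. The shares differed between the libraries (Fisher's exact test, adjusted p = 6.35e-13). Divided by length, TRUB1-202 had 12.7% and 39.1%.

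TRUB2 (ENSG00000167112, chromosome 9, 128305159 to 128322447, minus strand) was led by its MANE transcript in both libraries. TRUB2-201 had 317 and 399 estimated counts, 64.6% (exact 95% interval 60.2 to 68.8) and 63.7% (59.8 to 67.5), and the test made no call (Fisher's exact test, adjusted p = 0.893). TRUB2-203, named after its values were seen, had 15.2 and 2.13 counts, 3.09% (1.72 to 4.99) and 0.340% (0.0387 to 1.15). These intervals did not overlap, but they cover counting error only. How often this occurs over all transcripts was not computed. TRUB2-202 has no defined coding sequence and had 158 and 225 counts. It is 933 nt long against 5426 nt for TRUB2-201, so divided by length it held 66.5% and 75.7% of the gene.

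TRUB2-202 carries an extra exon of 75 nt between the third exon and the fourth exon of TRUB2-201. The junctions after the third exon are shown because they tell the pair apart, with the exon that follows in capitals.
TRUB2-201, chr9:128317152-128317166 joined to chr9:128315614-128315628, minus strand: cttctggagtacttgTGCTCGGCGTGGGAC
TRUB2-202, chr9:128317152-128317166 joined to chr9:128315882-128315896, minus strand: cttctggagtacttgGTGTCAGAATCCTGT

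TRUB2 shares 10965 nt of its span with SWI5 on the opposite strand, and 122 nt of TRUB2-201 (2.25%) lie in SWI5 exons. SWI5 had 287 and 233 normalised counts.

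RPUSD3 (ENSG00000156990, chromosome 3, 9837849 to 9844602, minus strand), an RluA-type protein required for mitochondrial gene expression, had the most listed transcripts of the 10 genes, 17. RPUSD3-201 led with 1062 and 1587 estimated counts, 59.8% (exact 95% interval 57.4 to 62.1) and 68.1% (66.2 to 70.0), higher in replicate 2 (Fisher's exact test, adjusted p = 1.65e-07). RPUSD3-203 had 291 and 253 counts and RPUSD3-212 had 97.5 and 109. Retained-intron transcripts held 15.5% and 13.9% of the gene. The whole RPUSD3 span of 6754 nt lies within TTLL3 on the opposite strand, which had 580 and 787 normalised counts, and no exonic base of RPUSD3-201 lies in a TTLL3 exon.

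RPUSD4 (ENSG00000165526, chromosome 11, 126202096 to 126211692, minus strand), which modifies the large mitochondrial rRNA, was the only one of the 8 genes with several coding sequences whose leading coding sequence differed between the libraries, against 17% of 12324 genes. RPUSD4-208 had 393 and 256 estimated counts, 45.7% (exact 95% interval 42.3 to 49.1) in replicate 1 and 31.0% (27.9 to 34.3) in replicate 2 (Fisher's exact test, adjusted p = 3.46e-09). The MANE transcript RPUSD4-201 had 280 and 281 counts, 32.5% and 34.1%. RPUSD4-203, a retained-intron transcript with 30 nt more at the third exon, had 170 and 243 counts, 19.8% and 29.4%. Divided by length, RPUSD4-208 still led replicate 1 with 45.6%, and RPUSD4-203 led replicate 2 with 31.9%.

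RPUSD4-208 lacks 93 coding nt of RPUSD4-201, or 31 codons, of which 20 nt are at the end of the fourth exon and 73 nt at the start of the fifth. The junctions are shown because they separate the pair, with the fifth exon in capitals.
RPUSD4-201, chr11:126205688-126205702 joined to chr11:126205598-126205612, minus strand: cagcaacaccacaagATGACATTGTCCCCG
RPUSD4-208, chr11:126205708-126205722 joined to chr11:126205525-126205539, minus strand: agaaggaggcgcaagTTGCTGTAACTCAGT

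The transcripts with the RPUSD4-201 form of this junction, among them RPUSD4-203, held 52.5% of the gene in replicate 1 and 65.3% in replicate 2, while RPUSD4-208 was the only one with the other form.

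**Figure D4:**
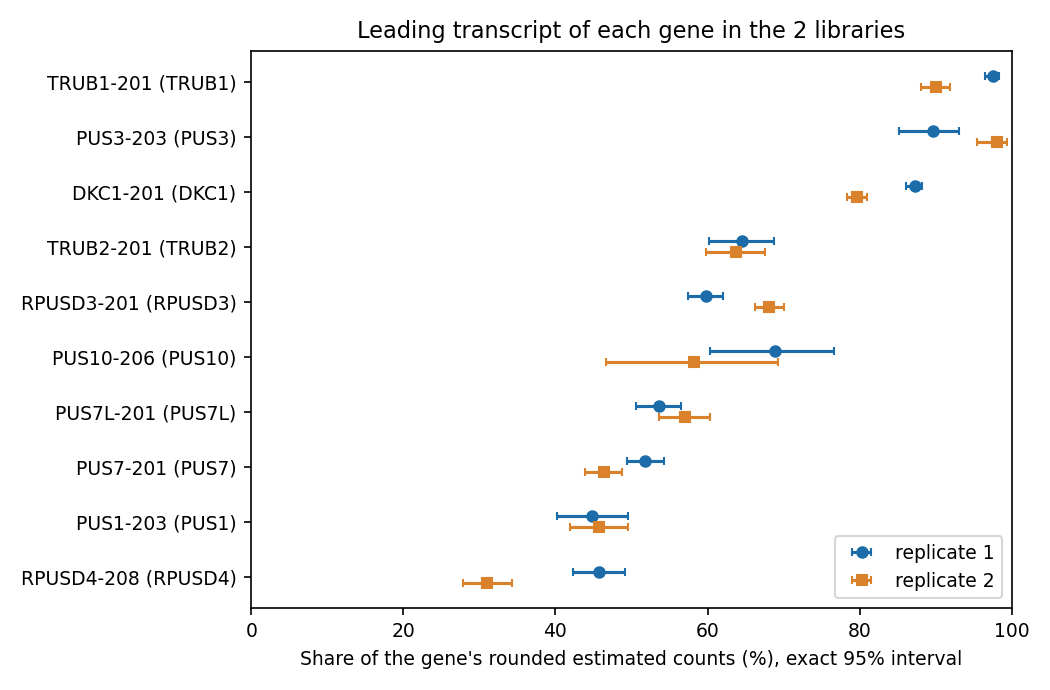
Share of the leading transcript (by mean) in its gene's rounded estimated counts (percent) with exact 95% intervals as bars, a circle for replicate 1 and a square for replicate 2. The intervals overlap for TRUB2, PUS10, PUS7L and PUS1, and RPUSD4-208 falls from 45.7% to 31.0%.

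DKC1 (ENSG00000130826, chromosome X, 154762742 to 154777689, plus strand) had the most counts of the 10 genes, 3940 and 3834 after rounding. The tables listed 12 of the 32 DKC1 transcripts of GENCODE v44, so its shares are over those 12. DKC1-201, the MANE transcript, had 3437 and 3056 estimated counts, 87.2% (exact 95% interval 86.2 to 88.3) in replicate 1 and 79.7% (78.4 to 81.0) in replicate 2 (Fisher's exact test, adjusted p = 3.15e-18). Retained-intron transcripts held 9.35% and 15.7%.

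DKC1 hosts the H/ACA RNAs SNORA36A and SNORA56 in its introns, small RNAs of the class that its own protein binds. SNORA56 (129 nt, chrX:154774998-154775126) lies entirely inside the 4 listed transcripts that hold the end of the intron before the thirteenth exon of DKC1-201. These are DKC1-209, DKC1-210, DKC1-211 and DKC1-212, and they held 8.49% of the gene in replicate 1 and 14.2% in replicate 2. DKC1-211 begins at the first base of SNORA56, inside the intron, so it holds only 197 nt of it, against 489 nt in DKC1-212. It had 247 and 267 counts. DKC1-212, named after its values were seen, had 43.3 and 249.9.

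The sequences at this intron are shown because they separate the spliced form from the form that keeps SNORA56. Capitals mark the thirteenth exon in DKC1-201 and the end of the intron in DKC1-211.
DKC1-201, chrX:154774691-154774705 joined to chrX:154775195-154775209, plus strand: gtatgttgactacagTGAGTCTGCCAAAAA
DKC1-211, chrX:154775180-154775209, plus strand: CTACCTCTTTTTCAGtgagtctgccaaaaa

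Under their own entries, SNORA36A had 8.22 and 3.99 estimated counts, and SNORA56 was listed at 0 in replicate 1 and had 1.34 in replicate 2. Reads over SNORA56 fit both its own entry and these DKC1 transcripts, so its counts and theirs are uncertain. Of the 132 nt of SNORA36A, 117 lie inside DKC1-208 (20.8 and 41.0 counts), so the counts of this pair are uncertain too. Over all 10 genes the median share of retained-intron transcripts was 6.90%, against 0.234% for 15537 protein-coding genes. PUS3, PUS7L, TRUB1 and TRUB2 have no retained-intron transcript among those listed, which sets their share to 0%. The protein-coding genes were likewise not restricted to those with such a transcript, so the medians also depend on how many genes have one annotated.

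**Figure D5:**
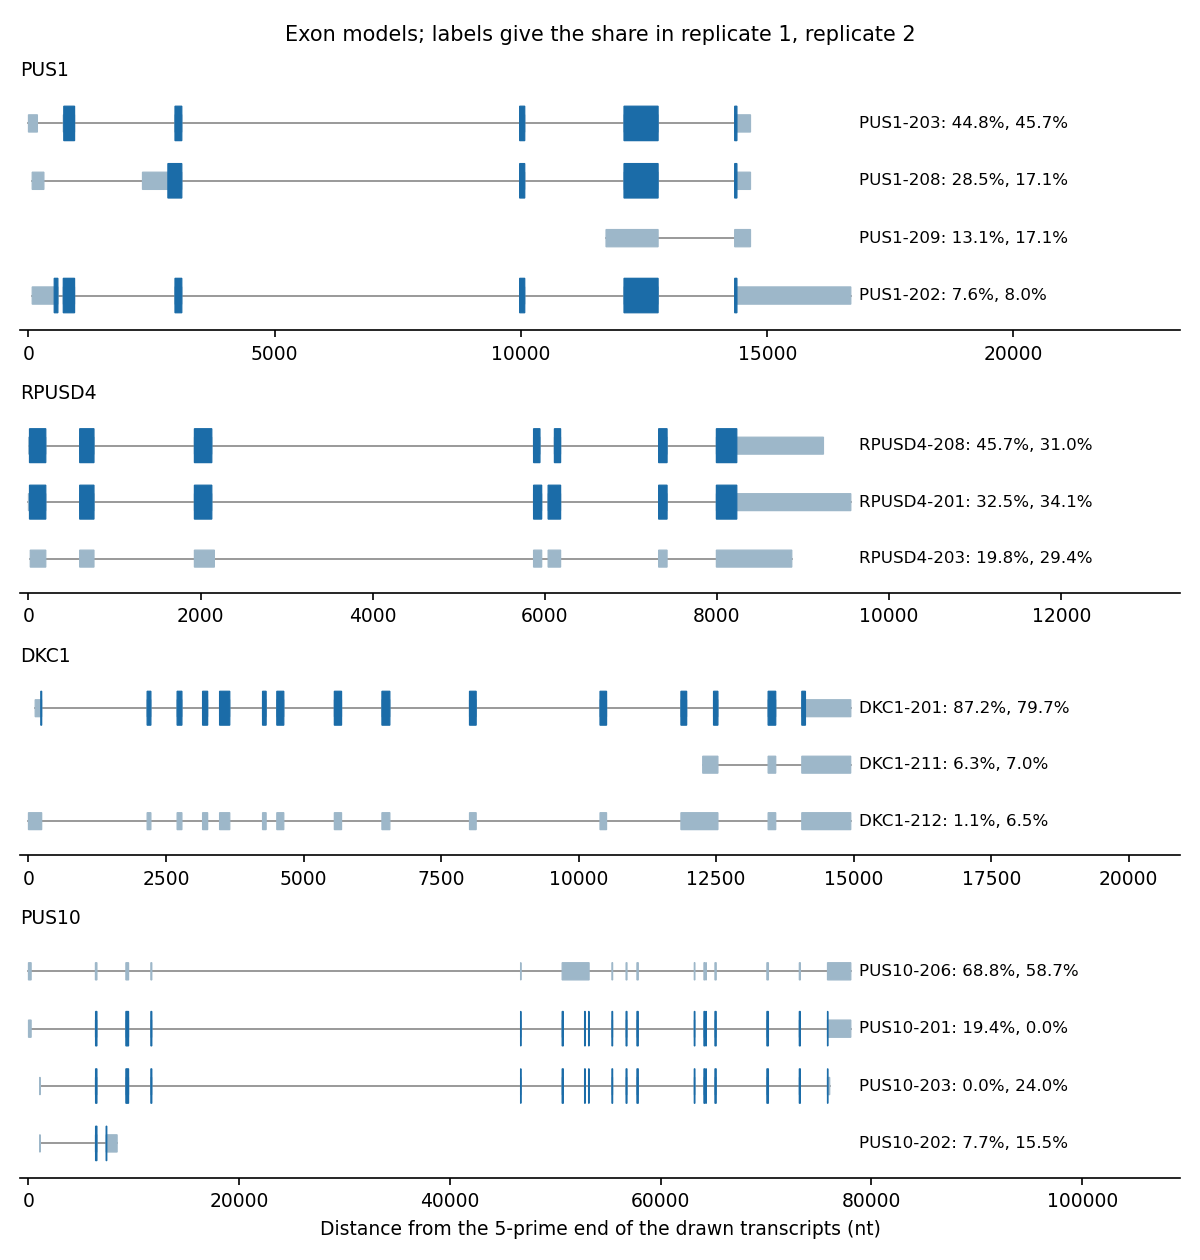
Exon models of 3 or 4 transcripts each of PUS1, RPUSD4, DKC1 and PUS10, with distance in nt from the 5′ end of the drawn transcripts on the horizontal axis, coding parts as tall dark boxes, other exon parts as low pale boxes and introns as lines, with box edges drawn so that short exons stay visible. Labels give the share of the gene in replicate 1 and replicate 2, from 87.2% and 79.7% for DKC1-201 to 0.0% and 24.0% for PUS10-203.

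The level of DKC1 was then set beside its partners. The core of the H/ACA ribonucleoprotein holds DKC1, NHP2, NOP10 and GAR1. NHP2 had length-normalised levels of 201.1 and 201.8, 3.17-fold above DKC1, and NOP10 had 77.6 and 82.5, 1.26-fold above it. GAR1 had 10.8 and 7.78, so DKC1 was 6.85-fold above it. All 3 differences exceeded the spread between the libraries. NAF1 and SHQ1, which act in assembly of the particle, had 11.7 and 10.7 and 12.5 and 11.6, and DKC1 was 5.69-fold and 5.28-fold above them.

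The 3 other synthases of the list and the 3 mitochondrial partners lay within the range of the 10 genes. The synthases PUSL1, RPUSD1 and RPUSD2 had length-normalised levels of 20.8 and 28.6, 17.7 and 25.8, and 11.9 and 11.0. FASTKD2, NGRN and RCC1L, mitochondrial proteins found with RPUSD3, RPUSD4 and TRUB2, had 7.90 and 5.97, 46.7 and 40.7, and 21.6 and 21.7. None of the 3 other synthases, 5 H/ACA partners and 3 mitochondrial partners differed by more than 2-fold in normalised count between the libraries. Of the 26370 expressed genes, 13.1% did. The lowest normalised count in these lists was 210, for GAR1 in replicate 2, while an expressed gene needed only 1 in each library. The comparison with 13.1% is thus not matched for level here either.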

How the data were processed

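The deposited tables gave an estimated count per transcript, made by the authors with RSEM and divided by neither length nor depth, and a normalised signal (EB-Seq-Normalised per the file headers), which equals that count divided by a size factor of 0.945 for replicate 1 and 1.08 for replicate 2. FastQC, STAR 2.7.0d, RSEM 1.3.3 and R 3.6.3 are named in the submitters' processing notes without roles, and the study names GRCh38 for its crosslinking reads. For these tables the build, annotation release and strand setting are not given in the sources used here, so reads of overlapping genes on opposite strands cannot be told apart.

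The transcript identifiers, version left off, were looked up in GENCODE v44, from which lengths, coding sequences and the printed bases (GRCh38) were taken. Of the 79 synthase transcripts, 62 had the same version and 17 another, including all 10 canonical ones. No effective length was subtracted. Python 3.11.15, numpy 2.4.6, pandas 2.3.3, scipy 1.17.1 and matplotlib 3.10.9 were used.

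The genes, lists and tests were chosen with earlier results of these data known. Named transcripts were those with a mean share of at least 5% or the highest share in either library, up to 4 per gene. Fisher's exact test (two-sided) used rounded estimated counts, with Benjamini-Hochberg adjustment over all genes and a threshold of 0.05, and was tested on simulated data. The simulated counts had Poisson error only, without the error of dividing reads between transcripts. Intervals are Clopper-Pearson at 95%, and the limit for a count of 0 is 3 counts. Both cover counting error only. Alternatives changed the unit, length, transcripts, minimum counts and library. Centring on GC content and summing identical coding sequences were chosen after seeing the data. The tables of METTL8 transcripts alone were not used.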

Additional observations from a re-analysis of the deposited data

How the results depend on the processing

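No paired analysis was possible because there was 1 group. Normalised counts not divided by length put RPUSD3 below DKC1 (log2 ratio -0.93), TRUB2 below PUS7L (-0.85) and DKC1 above NOP10 (1.80), and left DKC1 and NHP2 without a call (-0.11). Such values follow transcript length as well as level. Same-version transcripts, which leave out every canonical transcript, put TRUB1 below PUS1 (-1.70) and, without a call, DKC1 below PUS7 (-0.73), and lost the call of DKC1 over GAR1 (1.14). TRUB2 lay below PUS7L with protein-coding transcripts (-1.32) and PUS7L below PUS3 with canonical lengths (-0.89), and the cause was not tested. Calls gained or lost by neighbours under these settings stand beside the order of the genes, other than TRUB1 over PUS1 with counts not divided by length (0.97). The leader was the same in 4 of 7 genes with protein-coding transcripts and in 6 of 10 with length-normalised values, against 8 of 10. Shares over all genes were not computed under these settings, so whether these counts are low was not tested. The first PUS1 start took 4.30% and the second 72.2% after division by length, and the first 0.0029% with same-version transcripts.

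Each library alone gave log2 ratios of DKC1 of -1.75 to -1.58 to NHP2, -0.46 to -0.21 to NOP10 and 2.64 to 2.95 to GAR1, and PUS1 start shares of 9.19 to 10.5%, 56.4 to 67.1% and 22.4 to 34.4%. With 2 libraries this says nothing about stability. Of 158 other recomputed values, 7 reversed, 5 lost and 7 gained a call, and 39 moved, nearly all by over 1 SD of the libraries. RPUSD4 to TRUB1 had no call and changed sign with counts (-0.40), protein-coding transcripts (-0.17) and lengths less 150 nt (-0.02). PUS10 has 135 and 79 counts, so its shares have the widest intervals.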
